A study of Danio rerio with 6 samples.

Results

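The genes described here are the snRNA genes of the zebrafish embryo outside the U1, U2, U4, U5 and U6 families. They were taken by name from the snRNA table, and they are 10 of its 1229 rows: U12.1, U11.1, U11.2, U4atac.1, U6atac.1, U6atac.2 and U7.1 to U7.4. Fragments of these genes were counted in small RNA libraries of whole embryos of the AB wild type strain at 50% epiboly, 5.5 h post fertilization (hpf), with each library made from a pool of 100 embryos. In the F1-γ group (n = 3 libraries), the parents had been exposed at 6 months of age to gamma radiation, at a dose rate of 8.7 mGy/h over 27 days and 5.2 Gy in all, and were mated 1 year after the exposure. In the F1-C group (n = 3 libraries), the parents were not exposed. The comparison of both groups asks whether the abundance of these RNAs in the offspring differed with the exposure of the parents.

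Most introns of vertebrate genes are removed by the major spliceosome, which holds the U1, U2, U4, U5 and U6 snRNAs. A small class of introns is removed by the minor spliceosome instead, in which U11 pairs with the 5′ splice site, U12 with the branch point, and U4atac and U6atac take the places of U4 and U6, while U5 is shared by both machines. U7 does not splice. It guides the processing of the 3′ end of the replication-dependent histone transcripts, which carry no poly(A) tail. U6 and U6atac are made by RNA polymerase III and the other snRNAs by RNA polymerase II.

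The authors kept reads of 18 to 36 nt, and the members are annotated at 54 to 153 nt. The values are therefore counts of fragments and not of whole snRNAs, and a difference in the abundance of an snRNA and a difference in how it is fragmented cannot be told apart. Lower abundance per cell and fewer cells that hold the RNA cannot be told apart in pools of whole embryos either. Counts over all snRNA genes were between 24212 and 30257 in the F1-C libraries and between 5756 and 9138 in the F1-γ libraries, whereas the sum over the 4 tables of the study (miRNAs, piRNA clusters, snRNAs and lincRNAs) was between 1415645 and 2414771 per library. Counts per 1000000 counts of the 4 tables of a library are called CPM below, and counts per 1000000 counts of the snRNA table alone are called snRNA CPM. Some U1 and U2 gene copies, such as U1.87, U1.78 and U1.63, had identical counts in every library. A read may therefore have been counted on each copy, and have entered sums over copies and the snRNA totals more than once. The snRNA class as a whole was scarcer in F1-γ, and the direction found for a member depends on whether it is scaled to the snRNA class or to all 4 tables. Both are given below.

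Of the 10 genes, 9 had a count in at least 1 library, 3 had more than 10 counts in at least 3 libraries, and 1 had more than 100 counts in at least 3 libraries. The members held 963 counts over the 6 libraries, 736 of them in F1-C, the other 227 in F1-γ. Summed over all 10 genes, the F1-C libraries had 136, 160 and 140 CPM and the F1-γ libraries 41.4, 30.1 and 28.9 CPM. All F1-γ libraries were below all F1-C libraries. The mean of F1-C was 146 ± 12.8 CPM (SD, n = 3) and that of F1-γ 33.5 ± 6.91 CPM (SD, n = 3), a 4.35-fold lower level, with p = 0.1 in a two-sided exact permutation test, the smallest p that 3 against 3 libraries allow. In snRNA CPM the direction turned, since F1-C had 9056 ± 1039 snRNA CPM (SD, n = 3) against 10832 ± 195 (SD, n = 3) for F1-γ, 1.20-fold higher (exact permutation p = 0.1). The summed members were therefore lower together with the snRNA class, and by slightly less than the class. This sum mixes members that went both ways within the class, and U12.1 held 477 of its F1-C counts. Without U12.1, the sum was 2.10-fold lower in CPM and 2.51-fold higher in snRNA CPM in F1-γ. U12.1 alone was 2.16-fold lower in snRNA CPM.

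U12.1, the only U12 gene in the table and the branch point snRNA of the minor spliceosome, was the most abundant member in F1-C. It lies on chromosome 3, from 1438449 to 1438601 on the minus strand (GRCz10, 153 nt, ENSDART00000115597), and overlaps none of the piRNA clusters or lincRNAs of the other tables. The F1-C libraries held 107, 200 and 170 of its fragments, against 31, 23 and 5 in F1-γ. The F1-γ counts were all below the F1-C counts although the F1-γ libraries held more counts over the 4 tables. Scaled to the 4 tables, these were 75.6, 116 and 89.7 CPM for F1-C, against 12.8, 10.8 and 2.29 CPM for F1-γ. The F1-C mean of 93.7 ± 20.4 CPM (SD, n = 3) was 10.8-fold the F1-γ mean of 8.65 ± 5.60 CPM (SD, n = 3). The third F1-γ library was the lowest, and the highest F1-γ library was still well below the lowest F1-C library.

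U11.1, which recognizes the 5′ splice site of minor introns, had the next largest difference in CPM after U12.1 among the members with more than 10 counts in at least 3 libraries. It lies on chromosome 19, from 16157464 to 16157599 on the plus strand (136 nt, ENSDART00000115777). It had 46, 34 and 41 counts in F1-C, against 18, 14 and 13 in F1-γ. The groups did not overlap on the raw counts. The F1-C mean was 24.6 ± 6.91 CPM (SD, n = 3), 3.69-fold the F1-γ mean of 6.67 ± 0.752 CPM (SD, n = 3). The other copy, U11.2, lies 7009 nt further along the same strand (16164608 to 16164741, 134 nt, ENSDART00000115679) and had 1 count in all, in the third F1-γ library. How reads that fit both copies were counted is not stated, so the split between the copies is uncertain.

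U6atac.1, the catalytic snRNA that replaces U6 in the minor spliceosome, differed least of these 3 members in CPM of the 4 tables and most of them in snRNA CPM. It lies on chromosome 21, from 6287401 to 6287528 on the plus strand (128 nt, ENSDART00000117190). It had 33, 37 and 49 counts in F1-C, against 41, 18 and 39 in F1-γ. These raw counts overlapped between the groups. Scaled to the 4 tables, the values were 23.3, 21.4 and 25.9 CPM for F1-C, against 17.0, 8.47 and 17.9 CPM for F1-γ, which did not overlap. The means were 23.5 ± 2.23 CPM (SD, n = 3) and 14.4 ± 5.19 CPM (SD, n = 3), 1.63-fold lower for F1-γ. Raw counts were 119 in F1-C and 98 in F1-γ in all, and the 4-table totals were larger in F1-γ. These larger totals enter the CPM of every member alike. The second F1-γ library was the lowest, and the other F1-γ libraries were close to the F1-C range. U6atac.2 on chromosome 13 (34757240 to 34757364, plus strand, 125 nt, ENSDART00000118167) had 1 count in all, in an F1-C library.

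U4atac.1, the partner that U6atac pairs with before the spliceosome is activated, had no count in any library. It is annotated on chromosome 9, from 38394612 to 38394733 on the minus strand (122 nt, ENSDART00000120294). With 11761674 counts over the 4 tables of the 6 libraries, a count of 0 allows up to 0.255 CPM (3 counts over all libraries). U4atac was thus not detectable at this depth, and no comparison between the groups can be made for it. Of the 4 specific snRNAs of the minor spliceosome, 3 were seen as fragments.

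The U7 genes sit in a cluster of 14065 nt on the minus strand of chromosome 16, at 12348505 to 12348558 (U7.2, ENSDART00000116610), 12356960 to 12357018 (U7.1, ENSDART00000116738), 12359366 to 12359421 (U7.3, ENSDART00000118357) and 12362513 to 12362569 (U7.4, ENSDART00000116542). They are short genes of 54 to 59 nt and each library held few of their fragments. U7.2 had 4, 5 and 3 counts in F1-C, and again 4, 5 and 3 in F1-γ, and the other U7 genes had between 0 and 4 counts per library. Summed over the 4 genes, which are treated together because reads may fit several of them, the counts were 7, 6 and 5 in F1-C, against 10, 9 and 5 in F1-γ. The groups overlapped. The sum was 3.68 ± 1.17 CPM (SD, n = 3) for F1-C, against 3.56 ± 1.10 CPM (SD, n = 3) for F1-γ (two-sided exact permutation p = 0.9). With 18 counts in F1-C and 24 in F1-γ, the pooled F1-γ rate was 0.999 times the F1-C rate. Its exact 95% interval was 0.520 to 1.95, from counting error alone and without the spread between libraries. Differences within this interval were not detectable at this depth.

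Within the snRNA class the members spread to both sides. In snRNA CPM, U12.1 was 2.16-fold lower in F1-γ, whereas U11.1 was 1.43-fold, U6atac.1 3.21-fold and the U7 sum 5.11-fold higher, and none of the 4 overlapped between the groups (exact permutation p = 0.1 for each). The U7 sum went from 225 ± 55.4 snRNA CPM (SD, n = 3) in F1-C to a mean of 1152 ± 315 (SD, n = 3) in F1-γ, although its raw counts hardly differed. On this scale 13 of the 43 snRNA genes with more than 10 counts in at least 3 libraries were higher in F1-γ without overlap (30.2%) and 18 were lower (41.9%).

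**Figure D1:**
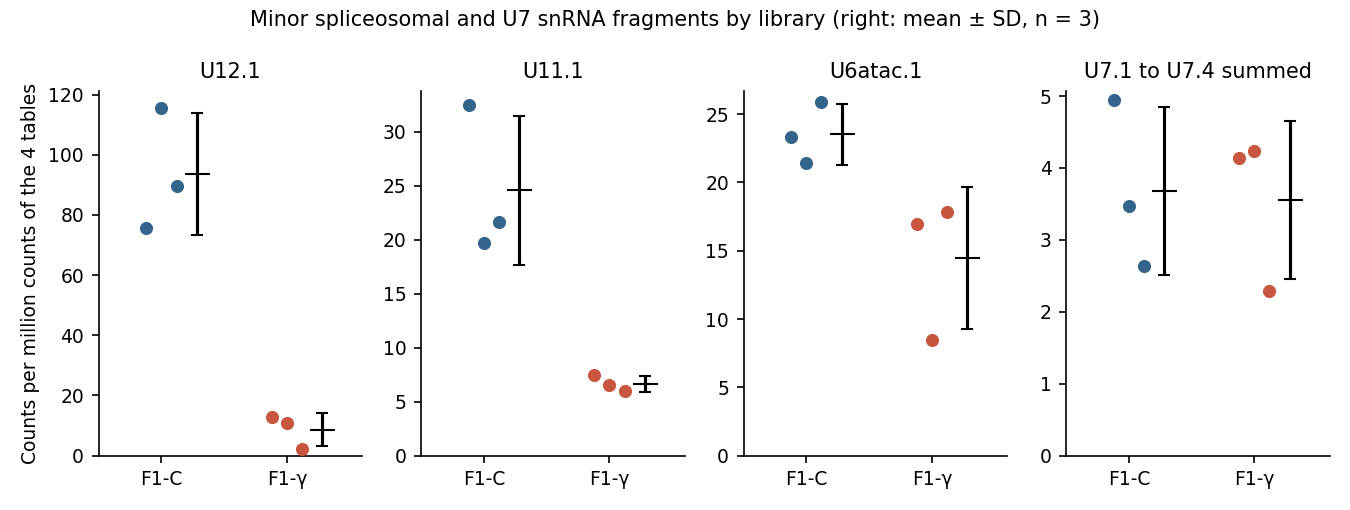
CPM of the 4 tables (vertical axes, each starting at 0 and with its own scale) for U12.1, U11.1, U6atac.1 and the sum of the 4 U7 genes. Points are libraries, blue for F1-C and red for F1-γ, and the black marks are the mean ± SD (n = 3). U12.1, U11.1 and U6atac.1 do not overlap between the groups, with the widest gap for U12.1, whereas the U7 sums overlap.

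The same interval for U12.1 was 0.0695 to 0.122 around a pooled ratio of F1-γ to F1-C of 0.0927. It was 0.193 to 0.396 around 0.279 for U11.1 and 0.468 to 0.813 around 0.617 for U6atac.1. These intervals pool the libraries of a group, so they cover counting error only and leave out the spread between libraries. Amplified reads without molecular identifiers are not independent molecules either. The 3 intervals do not overlap each other, which compares pooled counts and not replicate libraries. Not overlapping between the groups, with F1-γ lower, was common among the snRNA genes: it held for 38 of the 43 genes with more than 10 counts in at least 3 libraries (88.4%), among them all 3 members. This minimum can be met by the F1-C libraries alone, which held more snRNA counts, so it can favour lower genes in this share. In CPM the direction of the 3 members was that of the class, and their estimates differed in size.

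The share of U12.1 among the member counts did not overlap between the groups. It was 55.4%, 72.2% and 63.9% in the F1-C libraries, against 31.0%, 35.9% and 7.94% in F1-γ. As CPM per kilobase of gene, the level of U12.1 was 612 in F1-C, against 181 for U11.1 and 184 for U6atac.1. In F1-γ the order was different, with 113 for U6atac.1, 56.5 for U12.1 and 49.0 for U11.1. The level of U7.2 on the same scale was 45.1 in F1-C and 33.2 in F1-γ. The most abundant gene of each major family was higher than every member in F1-C, from 718 for U6.14 and 1152 for U5.3 to 1939 for U4.29, 4989 for U2.9 and 11427 for U1.30. In F1-γ these levels were 236, 329, 125, 820 and 613, respectively.

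Ratios of 2 genes within a library do not depend on how the library is scaled, and they show which members were lower relative to which. The log2 ratio of U12.1 to U11.1 was 1.22, 2.56 and 2.05 in the F1-C libraries, against 0.78, 0.72 and -1.38 in the F1-γ libraries. It was lower by 1.90 on average in F1-γ (difference -1.90, 3.74-fold), and the groups did not overlap. Without the third F1-γ library, in which U12.1 had 5 counts, the difference was -1.19. The log2 ratio of U6atac.1 to U12.1 was -1.70, -2.43 and -1.79 in F1-C, against 0.40, -0.35 and 2.96 in F1-γ, a difference of 2.98 (7.89-fold) and of 2.0 without the third F1-γ library. Both spliceosomal partners of U12 were thus more abundant relative to U12.1 in F1-γ than in F1-C. The log2 ratio of U6atac.1 to U11.1 differed by 1.08 (2.11-fold), again without overlap.

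The U7 sum was higher relative to U12.1 by 3.70 on the log2 scale (3.20 without the third F1-γ library) and relative to U11.1 by 1.80, without overlap in either case. Relative to U6atac.1 it differed by 0.72 with overlapping groups (exact permutation p = 0.4). In CPM the U7 sum hardly differed, whereas 38 of 43 snRNA genes were lower in F1-γ without overlap (88.4%). How often the ratio of the U7 sum to the other genes did not overlap was not computed. From the lowest F1-γ level relative to F1-C to the highest, the members stood in the order U12.1, U11.1, U6atac.1 and U7, of which the neighbours U6atac.1 and U7 did not differ beyond their spread. Each ratio without overlap had p = 0.1 in a two-sided exact permutation test, and 0.114 after Benjamini-Hochberg adjustment over the 8 ratios computed among members or to a counterpart, so that none passed 0.05 and none could have.

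Each minor snRNA was then set against its counterpart of the major spliceosome. U12.1 against the summed U2 genes, which pair with the branch point of major introns, gave log2 ratios of -6.44, -5.92 and -6.07 in F1-C, against -7.65, -7.58 and -9.81 in F1-γ. The difference of -2.20 (4.60-fold) was without overlap (exact permutation p = 0.1, adjusted 0.167 over 5 families), and was -1.47 without the third F1-γ library. Against the most abundant U2 gene alone it was -1.06 with overlap (exact permutation p = 0.2). The U2 genes were split by chromosome after the data had been seen. Against the U2 copies on chromosome 2 the difference was -3.00 without overlap, and against those on other chromosomes it was -0.51 with overlap (exact permutation p = 0.3). In CPM, the chromosome 2 copies were 1.67-fold and the other U2 copies 8.86-fold lower in F1-γ, compared with 10.8-fold for U12.1.

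Relative to the other major families, U12.1 differed by 0.18 against U1 and by -0.51 against U4, with overlap in both cases (exact permutation p = 0.8 and p = 0.5). Against U5, the snRNA that both spliceosomes use, the log2 ratio was -2.86, -2.66 and -3.17 in F1-C, against -4.73, -3.30 and -5.19 in F1-γ, a difference of -1.51. The second F1-γ library lay just outside the F1-C range. Against U6 the difference was -1.54, and -0.82 without the third F1-γ library. Both had p = 0.1 in the exact permutation test (adjusted 0.167). U12.1 was thus set apart from the summed U2, U5 and U6 counts by ratios without overlap. For U2 this held against the copies on chromosome 2 and not against those on other chromosomes. Single U5 genes differed too: scaled to the 4 tables, U5.9 and U5.5 had log2 fold changes of -4.57 and -3.28, and the other U5 genes tested -1.80 to -1.18. U12.1 did not differ beyond the spread from U1 and U4, which were 15.0-fold and 9.16-fold lower in F1-γ in CPM.

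U11.1 and U6atac.1 were each compared with their major counterpart alone, and were higher relative to it in F1-γ. The log2 ratio of U11.1 to the summed U1 genes, which recognize the 5′ splice site of major introns, was -8.13, -8.82 and -8.22 in F1-C, against -6.59, -6.34 and -6.02 in F1-γ. It was higher by 2.08 (4.22-fold) in F1-γ. The log2 ratio of U6atac.1 to the summed U6 genes was -3.59, -3.88 and -2.91 in F1-C, against -1.89, -2.68 and -1.50 in F1-γ, higher by 1.44 (2.71-fold). Neither ratio overlapped between the groups. Against the most abundant U6 gene alone, the U6atac.1 difference was 0.82 with overlap (exact permutation p = 0.2). These differences depend on the family chosen. In CPM, U11.1 was 3.69-fold lower in F1-γ and the summed U1 genes 15.0-fold. The summed U2 genes were 2.93-fold and the summed U5 genes 3.93-fold lower. Ratios of U11.1 and U6atac.1 to the other snRNA genes went both ways, as given below.

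**Figure D2:**
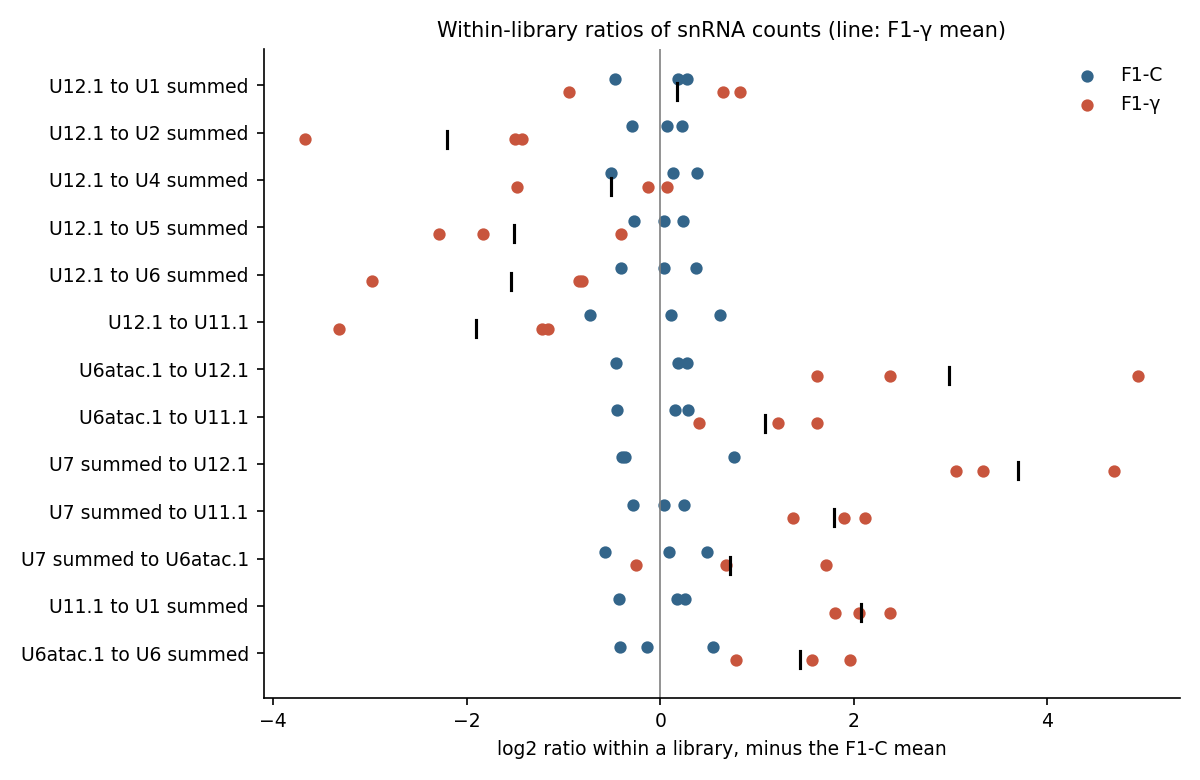
Log2 ratio of snRNA counts within each library, minus the F1-C mean of that ratio (horizontal axis), for U12.1 against each major family, for pairs of members, and for U11.1 and U6atac.1 against their major counterparts. Blue points are F1-C libraries, red points F1-γ libraries and the black line is the F1-γ mean. U12.1 against U1 and U4 overlaps between the groups, the ratio of U6atac.1 to U12.1 is higher by 2.98 in F1-γ, and the third F1-γ library is the far point in the ratios with U12.1.

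Set in turn against each of the 41 other genes that had more than 10 counts in at least 3 libraries and a count in every library, the U12.1 ratio was lower in F1-γ without overlap for 20 genes (48.8%) and higher for 0 genes. U5.9 was not among these 41 genes, because it had no count in the third F1-γ library. It had 111, 131 and 111 counts in F1-C, against 14, 6 and 0 in F1-γ. U12.1 had 107, 200 and 170 counts in F1-C, against 31, 23 and 5 in F1-γ. Where U5.9 had a count in F1-γ, the ratio of U12.1 to U5.9 was above that of every F1-C library. The 0 therefore does not cover U5.9, which was lower in F1-γ by more than U12.1. The U11.1 ratio was lower for 11 genes (26.8%) and higher for 22 (53.7%). The U6atac.1 ratio was lower for 1 gene (2.44%) and higher for 24 (58.5%). Many of the genes are copies that share reads, so these counts are not independent.

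Differential expression was next tested with edgeR's quasi-likelihood test over the whole snRNA table. With more than 100 counts required in at least 3 of the 6 libraries, 27 genes were tested, and with normalization by TMM (the trimmed mean of M-values) within the snRNA class, 10 of them passed an adjusted p of 0.05 and a log2 fold change of 0.6 in size (37%), 6 higher (22.2%) and 4 lower (14.8%) in F1-γ. U12.1 was the one member tested and did not pass, with a log2 fold change of -0.36 (SE 0.434, 95% interval -1.43 to 0.72, adjusted p = 0.516 by the Benjamini-Hochberg method). With no count minimum the same test called it lower (-1.83, adjusted p = 0.000265). The study, which used edgeR's exact test and TMM, listed U12.1 as down-regulated in F1-γ. U12.1 was above the minimum of 100 counts in the 3 F1-C libraries alone, so that the minimum itself selected for a high F1-C level. The 4 lower calls were U1 genes, and the 6 higher calls were 5 U2 genes, all on chromosome 2, and 1 U6 gene, while 0 of the 6 U5 genes and 0 of 1 U4 genes tested were called. The 4 U1 genes had identical or nearly identical counts, as had the 5 U2 genes, so these calls are not independent. With identical genes collapsed, 13 of 21 genes were called. With the library totals of the 4 tables in place of the snRNA class, the same test gave U12.1 a log2 fold change of -3.42 (SE 0.598, adjusted p = 0.000488). All 27 genes were then called lower (100%), with a median of -3.25, and U12.1 ranked 12 of 27 from the lowest. Other tested genes, such as U5.9, U4.29 and U6.14, also passed the minimum in F1-C alone, so the minimum favoured lower calls in this share.

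With a minimum of more than 10 counts in at least 3 libraries, 43 genes were tested and the 3 members could be compared in a single fit, an addition made for U11.1 and U6atac.1 after their counts had been seen. With TMM within the snRNA table, 24 genes were called (55.8%), 13 higher (30.2%) and 11 lower (25.6%). U6atac.1 was called higher, with a log2 fold change of 1.87 (SE 0.439, adjusted p = 0.00721 in edgeR's quasi-likelihood test), and was not called with no count minimum (1.04, adjusted p = 0.0848 in the same test). U11.1 at 0.67 (SE 0.311, adjusted p = 0.0913) and U12.1 at -0.98 (SE 0.397, adjusted p = 0.0669) were not called by edgeR's quasi-likelihood test, although DESeq2 (-0.82, adjusted p = 0.0419) and edgeR's exact test (-0.98, adjusted p = 0.0194) called U12.1. DESeq2 did not call U11.1 (0.83, adjusted p = 0.0533). Scaled to the totals of the 4 tables, 37 genes were called lower (86%) and 0 higher. U12.1 fell by 3.42 (SE 0.510, adjusted p = 2.07e-05) and U11.1 fell by 1.86 (SE 0.334, adjusted p = 0.00012) on the log2 scale in the same edgeR test, while U6atac.1 at -0.70 (SE 0.339, 95% interval -1.43 to 0.03, adjusted p = 0.0655) was not called. With TMM over the 4 tables, 40 genes were called lower (93%), now with U6atac.1 (-0.74, adjusted p = 0.0456 in edgeR's test). This lower minimum too can be met by F1-C alone, and can favour lower genes in these shares.

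The sign of U11.1 and U6atac.1 thus depended on the scaling, and that of U12.1 did not. The median of the 43 genes was -0.14 with TMM within the snRNA table and -2.72 with the totals of the 4 tables. Relative to that median, U12.1 stood at -0.84 and -0.70, U11.1 at 0.81 and 0.86, and U6atac.1 at 2.01 and 2.02, respectively. A change of library totals moves all genes of a library alike, so these distances are nearly fixed by construction. They moved with the genes included in the fit, and U11.1 stood at 0.36 with identical genes collapsed, at 0.11 without the U1 family and at -0.27 with no count minimum. From the lowest fold change, U12.1 ranked 12, U11.1 25 and U6atac.1 38 of 43 genes with the totals of the 4 tables.

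**Figure D3:**
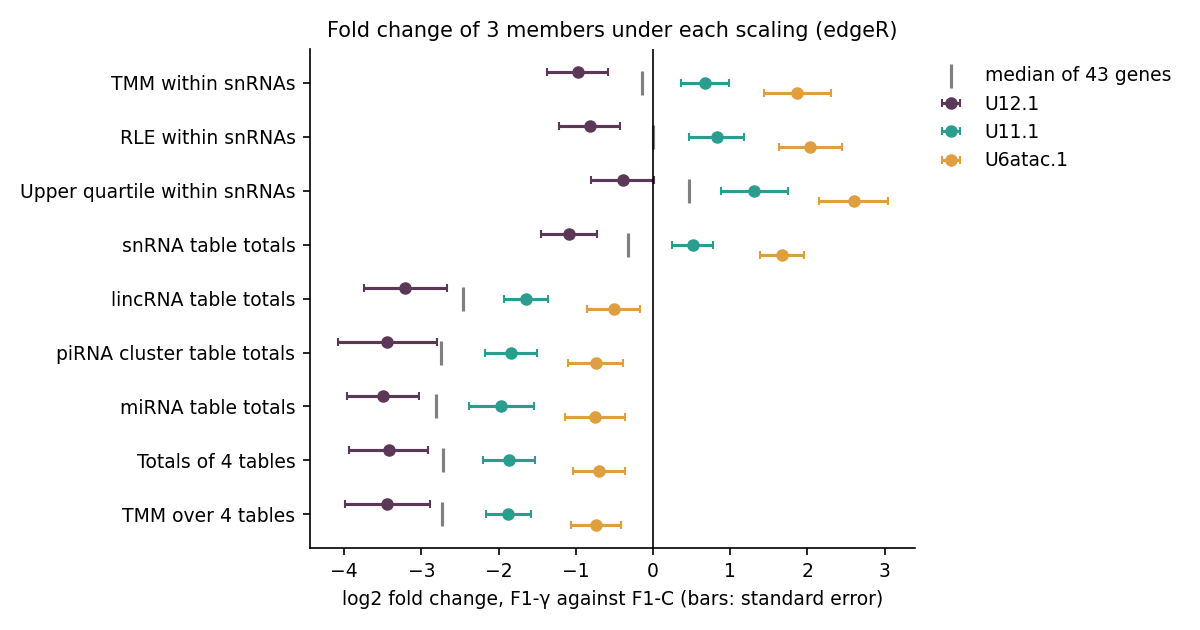
Log2 fold change of F1-γ against F1-C (horizontal axis) of U12.1, U11.1 and U6atac.1 with its standard error in edgeR's fit over 43 snRNA genes, under 9 scalings. Grey marks are the median of the 43 genes. Scaling within the snRNA table (top 4 rows) puts U11.1 and U6atac.1 above 0 and scaling to other RNA classes (bottom 5 rows) puts all 3 below 0.

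**Figure D4:**
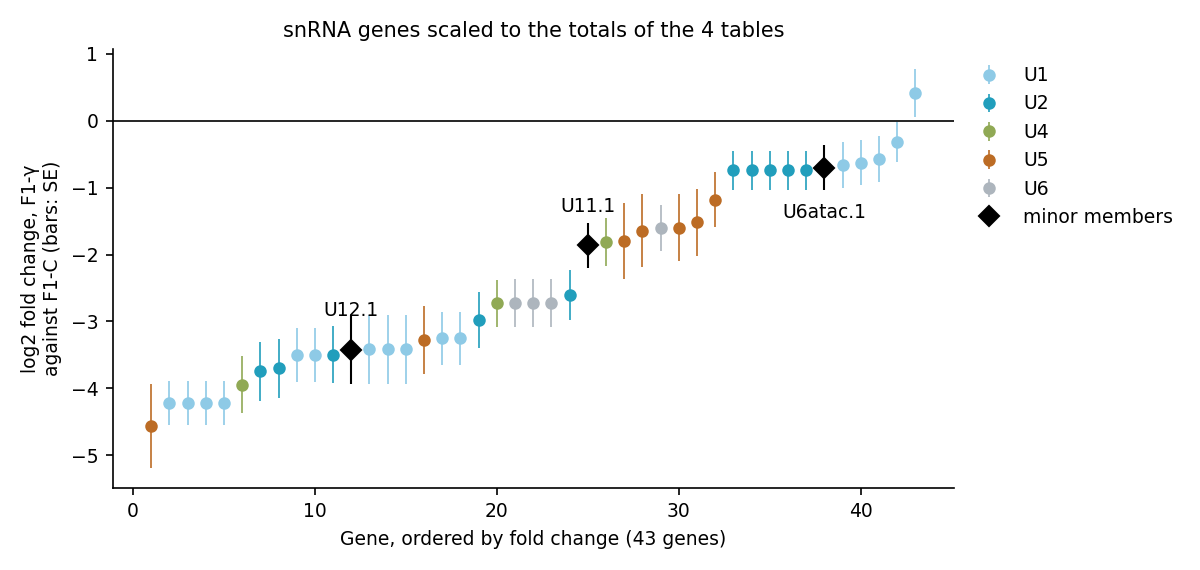
The 43 snRNA genes with more than 10 counts in at least 3 libraries, ordered along the horizontal axis by their log2 fold change of F1-γ against F1-C scaled to the totals of the 4 tables (vertical axis, bars are standard errors). Colours mark the major families and black diamonds the members. U12.1 at -3.42 lies among U1 and U2 genes, U11.1 at -1.86 in the middle, and U6atac.1 at -0.70 beside the U2 copies of chromosome 2.

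The genes whose pattern over the 6 libraries was most like U12.1 were U5.9, U2.4, U2.11, U2.10 and U5.5. Pearson's r of log2 CPM with U12.1 was 0.989 for U5.9, 0.987 for the 3 U2 genes and 0.983 for U5.5, as a description over 6 libraries that share their depth and fall into 2 groups. It was high for every gene compared, with a lowest value of 0.846. U5.9 had 111, 131 and 111 counts in F1-C, against 14, 6 and 0 in F1-γ. Like U12.1, it was lowest in the third F1-γ library. U2.4 had 818, 1240 and 980 counts in F1-C, against 145, 121 and 48 in F1-γ.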

How the data were processed

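Small RNA libraries of 3 F1-C and 3 F1-γ pools were assigned to groups by their labels. In the title of the F1-γ library numbered 3 the replicate numbers disagree, which leaves its group clear. Adapters were trimmed by the authors (Trim Galore 0.3.7 per the submitters' processing notes), and reads that passed filters on quality and length were mapped to GRCz10. The deposited snRNA and lincRNA values are whole counts of reads on each feature, not scaled by the authors, and their treatment of reads with several loci is not given in the sources used here. The study's methods call the cDNA libraries non-directional, and whether counting used the strand is not given in the sources used here. The deposited miRNA and piRNA cluster values are estimated counts, used here only in library totals.

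The members are all rows named other than U1, U2, U4, U5 or U6. All are named, and the other genes named are the most abundant of each major family, the 5 most like U12.1 and, from the lincRNA table, malat1. Members and lists were chosen with earlier results of these data known. edgeR 4.0.16 (R 4.3.3) was run over the whole snRNA table (more than 100 counts in at least 3 of 6 libraries, TMM, quasi-likelihood test, no covariate, Benjamini-Hochberg adjustment), and a gene was called where the adjusted p was under 0.05 and the log2 fold change beyond 0.6 in size. The SE is the coefficient divided by the square root of F. Alternatives included DESeq2 1.42.0, other scalings and count minimums, and leaving out each library. Alternatives added after the data were seen were the fits of U11.1 and U6atac.1, the ratios among members and to counterparts, the split of U2 by chromosome and TMM over 4 tables. The procedure was tested on simulated counts in which a minority of genes changed, in both directions, or none did. The snRNA class as a whole was lower here, so that test does not bear on the choice of scaling. Single values were compared by two-sided exact permutation tests. Replicate libraries differed beyond sampling noise (chi-square per degree of freedom 6.50 to 13.4), and the methods describe replicate groups of parents in each arm and 1 pool of embryos from each replicate.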

Additional observations from a re-analysis of the deposited data

How the results depend on the processing

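The count of genes called was 10 of 27 tested with TMM within the snRNA table. It was 24 of 43 at more than 10 counts in 3 libraries and 29 of 171 with no count minimum. Of the same 27 genes, 16 were called with DESeq2 and 18 each with upper-quartile factors, snRNA totals and lincRNA totals. All 27 were called with miRNA, piRNA cluster or 4-table totals and with TMM over the 4 tables. Leaving out each library gave 10 to 18, with 18 (8 higher, 10 lower) without F1-γ replicate 1. The split of 6 higher and 4 lower became 5 and 13 with snRNA totals and 0 and 27 with 4-table totals. U12.1 was negative in all 21 other fits. It became called with no count minimum (-1.83), with snRNA totals (-1.09), with totals of the 4 tables (-3.42), miRNAs (-3.50), piRNA clusters (-3.44) and lincRNAs (-3.21), with TMM over the 4 tables (-3.44) and without the U1 family (-1.42). Leaving out each library gave -0.78 to -0.22 for U12.1 within the snRNA class and -3.83 to -2.98 with 4-table totals. With 4-table totals the call held without each library in turn. U12.1 has no value where more than 100 counts are required in every library.

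U11.1 was 0.67 within the snRNA class. It was called higher with upper-quartile factors (1.31, adjusted p = 0.00638 in edgeR's test), and was 0.10 with identical genes collapsed and 0.27 without the U1 family. It turned negative with no count minimum (-0.20), and with totals of the 4 tables (-1.86), miRNAs (-1.97), piRNA clusters (-1.84) and lincRNAs (-1.64) and TMM over the 4 tables (-1.87), and was -2.00 to -1.62 without each library in turn under 4-table totals. U6atac.1 was no longer called with no count minimum (1.04), and turned negative with totals of the 4 tables (-0.70), miRNAs (-0.75), piRNA clusters (-0.74) and lincRNAs (-0.51). It was -0.74 and called with TMM over the 4 tables. Without each library in turn under 4-table totals it was -0.87 to -0.43, called only without F1-γ replicate 3 (adjusted p = 0.0282 in edgeR's test). The summed members were at a log2 ratio of -2.12 (-2.30 to -2.03 without each library in turn) and 0.26 in snRNA CPM. The ratio of U12.1 to U1 was -0.015 with identical genes collapsed and -0.15 to 0.74 without each library in turn, and that to U4 was 0.20 against the most abundant U4 gene. Deviations of same-numbered libraries from their group means had correlations of -0.61, 0.56 and 0.03, and those of the other pairs were -0.73 to 0.55. Deviations of 3 libraries around their own mean are not independent, so these values cannot show whether libraries were paired. With the replicate number as a block U12.1 was -0.39 (adjusted p = 0.620 in edgeR's test) and 12 genes were called. With no count minimum, none of the U7 genes was called (1.21 to 2.26, adjusted p = 0.127 to 0.622 in edgeR's test). The low counts of U12.1 in F1-γ and of U7 in all libraries limit what can be compared.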

Other observations

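In the lincRNA table, malat1, a long RNA of the nuclear speckles where splicing factors gather, had 258, 343 and 255 counts in F1-C, against 103, 122 and 77 in F1-γ. The groups did not overlap. The F1-C mean was 172 ± 33.2 CPM (SD, n = 3), 3.81-fold the F1-γ mean of 45.1 ± 11.3 CPM (SD, n = 3) (two-sided exact permutation p = 0.1, the smallest possible). How often lincRNAs did not overlap between the groups on this scale was not computed, and malat1 was chosen with earlier results known.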
